A study of Mus musculus with 12 samples.

Results

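The regions described here lie at mouse zinc finger protein genes. They were taken as every deposited peak whose nearest gene had a symbol that begins with Zfp followed by a digit. There were 4996 such peaks at 240 genes, and peaks that overlapped by at least 1 bp in any library were merged into 1425 regions, of 91177 regions made in the same way from all peaks. A library has a region when at least 1 of its own peaks lies in it. The data are from MeDIP-Seq, in which an antibody to 5-methylcytosine pulls methylated DNA fragments out of sheared genomic DNA before sequencing. Hippocampal DNA of C57BL/6 mice (C57BL/6J males per the study's methods) was taken at postnatal day 70. Pups in the Ethanol group had a dam that could drink 10% ethanol during pregnancy and, per those methods, until postnatal day 10. Pups in the Stress group had a dam with water only and spent 3 h of each day alone between postnatal days 2 and 14. The Ethanol + stress group had both exposures, and the Control group had neither. Each group had 2 enriched libraries from separate mice and 1 input library from another mouse of that group, which gives 8 enriched libraries in all. Both enriched libraries of a group were called against the same input, so the effect of a treatment and the effect of its input cannot be told apart. Hippocampus is a mixture of cell types, and a peak gives no share of methylated molecules.

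Zinc finger proteins of the C2H2 kind bind DNA through a row of fingers, each a short loop held by 2 cysteines and 2 histidines around a zinc ion. Mice carry a large number of such genes, many of them in tandem clusters made by duplication, and in most of them a single long last exon encodes the whole row of fingers. Many of the proteins also have a KRAB domain, which recruits Trim28 and, through it, histone and DNA methylation to silence retroelements and imprinted genes. The Zfp symbols also cover proteins of other kinds, such as Zfp36 and its relatives, which have CCCH fingers and bind messenger RNA.

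Of regions inside these genes found in all 8 libraries, the 3 with the highest fold ranks lay over the coding sequence of fingers. The sequences below are examples of finger exons with and without a peak, picked from the extremes. Each is 300 bases of the coding strand from the RefSeq genome (GRCm38.p6, the same build as mm10), printed 5′ to 3′ with every CpG in capitals. The first 4 are centred on the summit of the strongest peak of a region found in all 8 libraries. They had the highest fold ranks among such regions over fingers of a Zfp gene with a window that is coding throughout.
Zfp42, chr8:43295716-43296015, minus strand: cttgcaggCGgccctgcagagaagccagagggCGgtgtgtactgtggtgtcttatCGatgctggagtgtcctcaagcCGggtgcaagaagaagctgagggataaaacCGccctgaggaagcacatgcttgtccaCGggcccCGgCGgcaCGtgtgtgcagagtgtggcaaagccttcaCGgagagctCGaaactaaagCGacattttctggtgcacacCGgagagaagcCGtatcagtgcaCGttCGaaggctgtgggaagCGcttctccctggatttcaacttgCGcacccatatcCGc
Zfp13 (nearest gene Zfp213), chr17:23576495-23576794, minus strand: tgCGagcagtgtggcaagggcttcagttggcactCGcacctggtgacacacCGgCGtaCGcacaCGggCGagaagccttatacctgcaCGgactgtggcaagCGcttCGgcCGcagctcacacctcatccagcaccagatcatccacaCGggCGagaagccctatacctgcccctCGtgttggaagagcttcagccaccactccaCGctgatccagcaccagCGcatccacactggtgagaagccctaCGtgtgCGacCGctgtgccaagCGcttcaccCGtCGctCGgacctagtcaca
Zfp467, chr6:48438883-48439182, minus strand: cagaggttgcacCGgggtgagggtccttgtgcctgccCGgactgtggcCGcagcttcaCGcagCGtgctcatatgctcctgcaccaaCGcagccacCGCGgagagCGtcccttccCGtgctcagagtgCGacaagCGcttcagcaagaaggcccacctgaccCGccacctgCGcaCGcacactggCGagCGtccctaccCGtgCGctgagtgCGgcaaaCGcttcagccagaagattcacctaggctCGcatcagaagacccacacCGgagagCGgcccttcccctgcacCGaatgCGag
Zfp629, chr7:127611212-127611511, minus strand: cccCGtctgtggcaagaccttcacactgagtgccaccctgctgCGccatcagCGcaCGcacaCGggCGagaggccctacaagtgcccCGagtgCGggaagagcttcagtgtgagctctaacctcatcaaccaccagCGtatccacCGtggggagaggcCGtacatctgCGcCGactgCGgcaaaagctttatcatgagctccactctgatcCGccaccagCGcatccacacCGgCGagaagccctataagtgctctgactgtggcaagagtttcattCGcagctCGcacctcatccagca

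These 4 windows hold 19 CpG at Zfp42, 23 at Zfp13, 26 at Zfp467 and 20 at Zfp629, and each encodes 2 or 3 whole fingers. The next 2 windows begin at the first finger that lies with 300 bases in the last coding exon, in genes of the list given further on whose last coding exon has at least 1000 bp, that had no peak over a finger in any library and the lowest CpG density of their finger exon. Zfp932 is known as a repressor of endogenous retroviruses in mouse embryonic stem cells, and Zfp182 is a gene on the X chromosome.
Zfp932, chr5:110008753-110009052, plus strand: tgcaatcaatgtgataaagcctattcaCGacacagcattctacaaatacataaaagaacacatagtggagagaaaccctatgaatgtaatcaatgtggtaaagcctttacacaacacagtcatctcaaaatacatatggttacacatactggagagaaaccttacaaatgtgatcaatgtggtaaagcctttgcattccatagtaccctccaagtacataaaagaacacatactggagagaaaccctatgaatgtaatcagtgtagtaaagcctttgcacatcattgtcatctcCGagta
Zfp182, chrX:21030940-21031239, minus strand: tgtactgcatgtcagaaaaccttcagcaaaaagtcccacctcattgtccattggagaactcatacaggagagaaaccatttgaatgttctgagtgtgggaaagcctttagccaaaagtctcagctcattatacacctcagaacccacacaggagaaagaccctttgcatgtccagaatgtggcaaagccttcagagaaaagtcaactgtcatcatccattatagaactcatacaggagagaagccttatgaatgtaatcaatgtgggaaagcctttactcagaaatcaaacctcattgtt

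These 2 windows hold 2 CpG at Zfp932 and 0 at Zfp182, and each encodes 3 whole fingers. Their genes were picked for low CpG density, so the contrast in CpG with the windows under peaks was set in advance.

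Finger coding sequence was covered by peaks more than the introns, untranslated regions and other coding sequence of these genes in every library. The pattern used to find a finger was a cysteine, 2 to 4 residues, a cysteine, 12 residues, a histidine, 3 to 5 residues and a histidine in the longest annotated coding sequence of each gene (GENCODE M21). Of 394 annotated Zfp genes, 353 had 3 or more fingers, and in 296 of these every finger lay in the last coding exon. Peaks covered 12.8% and 5.63% of the finger bases in the Ethanol libraries, 11.8% and 13.4% in the Stress libraries, 12.4% and 10.2% in the Ethanol + stress libraries, and 8.34% and 8.38% in the Control libraries. Introns of the same genes were covered over 0.427% to 1.30%, and their untranslated regions over 0.422% to 1.47%. The fingers were thus covered 10.3 to 16.7 times as much as the introns, with no overlap between the 8 libraries' values for the 2 kinds of sequence. Other coding sequence of Zfp genes was covered over 2.74% to 7.18%, and the fingers 1.81 to 2.38 times as much as that. The whole last coding exon of Zfp genes, fingers included, was covered over 5.07% to 12.2%, close to the 5.63% to 13.4% of the fingers. Last coding exons of at least 1000 bp in genes with fewer than 3 fingers were covered over 3.62% to 11.0%, and Zfp fingers were covered 1.22 to 1.68 times as much as those in each library. That sets fingers alone against whole exons. Such exons of Zfp genes were covered over 5.25% to 11.7%, above those of genes with fewer than 3 fingers in every library. In other genes with 3 or more fingers they were covered over 4.57% to 12.5%, above Zfp genes in some libraries and below in others. Fingers of genes outside the Zfp family that carry 3 or more fingers were covered over 2.88% to 9.36%, and Zfp fingers 1.43 to 2.05 times as much as those. In these other finger genes the order within genes was the opposite. Their other coding sequence was covered over 3.69% to 11.3%, more than their fingers in every library. All 4 ratios were above 1 in 8 of 8 libraries. They compare parts of the genome within a library, so they carry no test between groups.

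**Figure D1:**
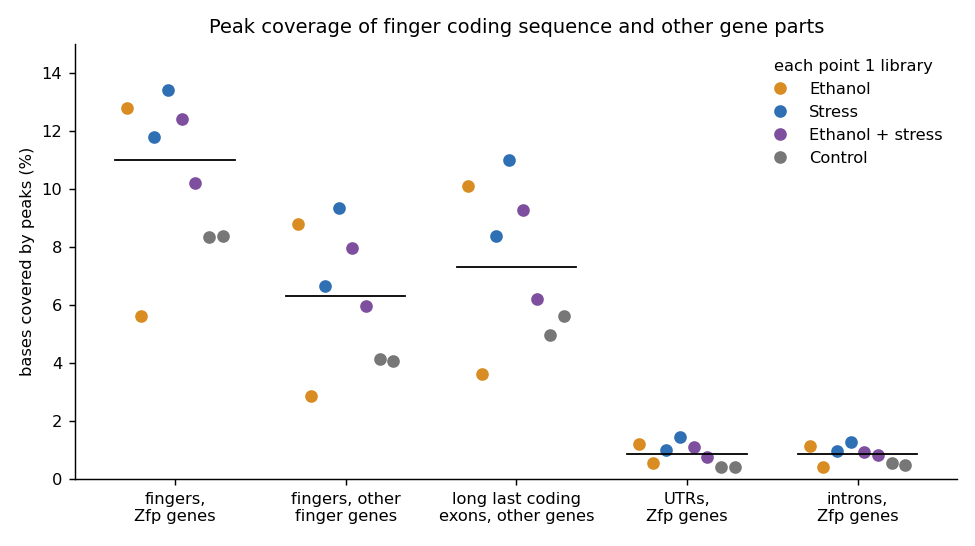
Share of bases covered by peaks (vertical axis, %) for finger coding sequence of Zfp genes, of other finger genes, long last coding exons of other genes, and untranslated regions and introns of Zfp genes. Each point is 1 library, coloured by group, and lines mark the median of the 8 libraries, which is 11.0% for Zfp fingers and 0.890% for Zfp introns.

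A peak over a finger was found at 88 Zfp genes in at least 1 library and at 28 Zfp genes in all 8. The number of Zfp genes with one was 69 and 33 in the Ethanol libraries, 68 and 72 in the Stress libraries, 67 and 57 in the Ethanol + stress libraries, and 51 and 49 in the Control libraries. Of the 1425 regions, 89 lay over a finger, and 27 of these (30.3%) were found in all 8 libraries. Within gene bodies, 26.1% of the 69 regions over a finger were found in all 8 libraries, against 8.71% of the 241 regions that did not reach one. The highest fold enrichment over a region's libraries had a median of 11.3 over fingers and 7.73 elsewhere in gene bodies. The nearest start site was not always that of the gene with the fingers: 73 of the 89 regions lay over fingers of the gene they are named for, and 16 over those of another gene only, 12 of them another Zfp gene. Zfp628, which had no region under its own name, had a peak over its fingers in all 8 libraries.

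Zfp467 had the widest span of fold among the 4 genes printed above. Its region, chr6:48437907-48439659, had a fold enrichment over input of 47.5 and 12.8 in the Ethanol libraries, 30.1 and 47.9 in the Stress libraries, 43.3 and 25.9 in the Ethanol + stress libraries, and 20.9 and 19.8 in the Control libraries. Both Stress and both Ethanol + stress values were above both Control values, and the Ethanol values lay on either side of them. With 2 libraries against 2, an exact permutation test cannot go below p = 0.333, and fold enrichment is set by each group's own input, so this region was not tested. P-values here measure the spread between libraries of single mice. At Zfp42, known as Rex1 and a marker of pluripotent cells in the mouse, the region chr8:43295454-43296620 covers the only coding exon. Its fold was 33.7 and 15.4 in the Ethanol libraries, 20.8 and 33.1 in the Stress libraries, 29.1 and 22.2 in the Ethanol + stress libraries, and 26.1 and 28.3 in the Control libraries. The Control values lay inside the range of each treated group. At Zfp629 (chr7:127610804-127612420) the fold was 35.1 and 15.4 in the Ethanol libraries, 19.6 and 33.1 in the Stress libraries, 22.9 and 13.9 in the Ethanol + stress libraries, and 20.4 and 17.7 in the Control libraries, again with every treated group overlapping Control. Zfp423, a regulator of cerebellar and adipocyte development in the mouse, had a weaker region over its fingers. Its fold at chr8:87779979-87782262 was 13.1 and 7.02 in the Ethanol libraries, 13.1 and 9.19 in the Stress libraries, 9.89 and 8.99 in the Ethanol + stress libraries, and 8.15 and 7.89 in the Control libraries. The Stress and Ethanol + stress values lay above both Control values, and the Ethanol values on either side of them. Ethanol library 2 had the lowest fold of all 8 at Zfp467, Zfp42 and Zfp423 and the second lowest at Zfp629, and it had the fewest peaks, 22805.

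Whether a finger exon had a peak went with how many CpG it held. Among Zfp genes with 3 or more fingers, the last coding exon had a median of 13.9 CpG per 300 bp in the 28 genes with a finger peak in all 8 libraries, 10.6 in the 58 genes with one in 1 to 7 libraries and 3.87 in the 267 genes with none. A finger peak was found in 1 of 103 genes below 3 CpG per 300 bp, in 2 of 104 genes at 3 to 6, in 15 of 52 at 6 to 9, in 28 of 41 at 9 to 12, in 17 of 22 at 12 to 15 and in 23 of 31 above 15. The genome as a whole holds 2.48 CpG per 300 bp. The antibody binds 5-methylcytosine, and a CpG-poor exon can hold little of it at CpG. The lack of a peak over such an exon thus does not show that its CpG are unmethylated. A peak did not need CpG at its summit. The intergenic region chr13:48448961-48449837 near Zfp169, in masked repeat, held 0 CpG there and was found in all 8 libraries. Near-identical copies could also matter, since reads that fit several places may be lost. Words of 50 bases shared with another finger gene made up a median of 5.46% of the exon in the group below 3 CpG and 0% in each of the other groups, and the part this plays was not tested.

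The same rule over all long last coding exons, with no regard to fingers, gave a like rise and a different upper end. Of Zfp genes whose last coding exon has at least 1000 bp, none of 90 below 3 CpG per 300 bp had a peak over that exon in any library, 1 of 86 at 3 to 6, 13 of 36 (36.1%) at 6 to 9, 24 of 25 (96.0%) at 9 to 12, 13 of 15 (86.7%) at 12 to 15 and 16 of 19 (84.2%) above 15. In protein-coding genes with fewer than 3 fingers and no Zfp symbol, the shares were 33.7% of 344 genes at 6 to 9, 53.6% of 237 at 9 to 12, 66.7% of 84 at 12 to 15 and 28.3% of 254 above 15. At 3 to 6 CpG the order was the other way, with 1.16% of Zfp genes and 10.6% of all other genes. Genes outside the Zfp family with 3 or more fingers had a peak in 78.9% of 19 genes at 9 to 12, 85.7% of 7 at 12 to 15 and 26.3% of 19 above 15. Over all CpG contents the share was 24.7% of Zfp genes, 22.8% of other finger genes and 28.6% of all other genes. The counts above 12 are small for Zfp genes, and no test was made of the shares, because genes of 1 library set are not replicates.

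**Figure D2:**
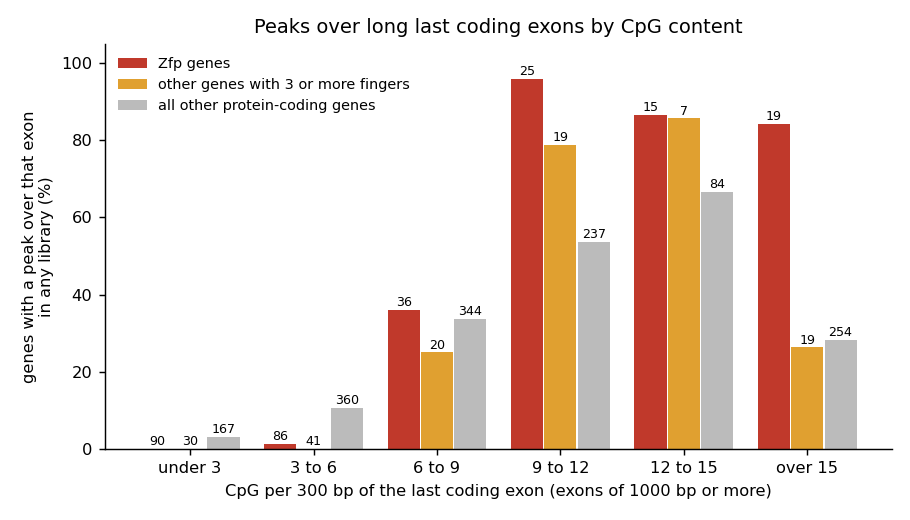
Share of genes with a peak over their last coding exon in any of the 8 libraries (vertical axis, %) by CpG content of that exon (horizontal axis, CpG per 300 bp), for exons of at least 1000 bp. Numbers above the bars are the genes in each bin. In Zfp genes the share is 0% below 3 CpG and 84.2% above 15, where it is 28.3% in all other protein-coding genes.

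Peaks at the start sites of zinc finger genes were few. A peak was classed as promoter in the files when its summit lay within 2000 bp of the start site. Promoter regions numbered 28 of 1425 (1.96%, against 2.86% of all regions), at 26 genes, while 310 (21.8%, against 26.6%) lay in gene bodies and 1087 (76.3%, against 70.5%) were intergenic. Only 7 of the 28 had a median summit within 1000 bp, 15 lay downstream of the start and 13 upstream. CpG-rich start sites are the rule in this family. RefSeq windows ran from 250 bp before to 50 bp after the start (GRCm38.p6), and for each gene the window with most CpG was taken. In it, 68.5% of 336 matched Zfp genes held 10 or more CpG, against 45.8% of 27025 genes. For the 20 of the 26 promoter genes that were matched, the share was 65.0%.

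Of the 28 promoter regions, 9 were found in 1 library and 3 in all 8. The strongest was at Zfp236, chr18:82693834-82695449, with its summit 1648 bp before the start. Its fold was 52.9 and 31.2 in the Ethanol libraries, 74.0 and 99.4 in the Stress libraries, 84.6 and 65.9 in the Ethanol + stress libraries, and 39.1 and 31.2 in the Control libraries. The 4 libraries of separated pups were all above the 4 others, and the region was among those singled out by its strength, so this order is given without a test. The window at its summit lies wholly in sequence that the RefSeq genome masks as repeat. Zfp768 had a promoter region over its fingers, 1795 bp after the start (chr7:127343027-127344378), with a fold of 39.5 and 17.6 in the Ethanol libraries, 21.5 and 21.8 in the Stress libraries, 20.6 and 14.5 in the Ethanol + stress libraries, and 12.4 and 14.3 in the Control libraries. All 6 treated values lay above both Control values, the closest being 14.5 against 14.3. Zfp36l3, a placental member of the CCCH family in rodents, had a region 666 bp after its start on the X chromosome (chrX:53775114-53776201), with a fold of 17.7 and 6.97 in the Ethanol libraries, 12.4 and 15 in the Stress libraries, 15.1 and 13.0 in the Ethanol + stress libraries, and 14.0 and 10.9 in the Control libraries. The region closest to a start site was at Zfp648, at chr1:154200753-154201446, 132 bp before the start. It was found with a fold of 7.93 in Ethanol library 2 and of 5.04 and 4.55 in the Ethanol + stress libraries, and it had no peak in the other 5. Zfp488, which promotes oligodendrocyte differentiation in the mouse, had a region with a median summit 2109 bp before its start (chr14:33980552-33981423), classed as promoter in at least 1 library. Its fold was 12.7 and 9.47 in the Ethanol libraries, 16.5 and 18.4 in the Stress libraries, 16.9 and 11.2 in the Ethanol + stress libraries and 13.2 in Control library 1, with no peak in Control library 2.

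The strongest regions of all lay mostly outside the genes, and several in repeats. Regions found in all 8 libraries were ranked by the lowest within-library percentile of their fold. Of the first 10, 8 were classed as intergenic, 1 was the Zfp236 promoter and 1 the coding exon of Zfp42. The class refers to the nearest gene alone. Among the 8, the regions at Zfp13 (nearest gene Zfp213) and near Zfp296 had their summits in coding sequence of another gene. At Zfp791 (chr8:85130372-85132232, 8498 bp before the start) the fold was 71.8 and 46.3 in the Ethanol libraries, 37.8 and 55.2 in the Stress libraries, 38.6 and 34.3 in the Ethanol + stress libraries, and 60.2 and 38.9 in the Control libraries. At a second Zfp42 region (chr8:43317820-43320454, 12696 bp before the start) it was 92.4 and 39.8 in the Ethanol libraries, 62.8 and 91.0 in the Stress libraries, 31.9 and 35.5 in the Ethanol + stress libraries, and 42.6 and 43.8 in the Control libraries. At Zfp932 (chr5:109906069-109907808, 89473 bp before the start) it was 35.7 and 22.8 in the Ethanol libraries, 39.2 and 42.2 in the Stress libraries, 37.3 and 33.1 in the Ethanol + stress libraries, and 26.8 and 29.1 in the Control libraries. At Zfp791 the Ethanol and Stress values overlapped those of Control, and both Ethanol + stress values lay just below them. The 31 bases at the summit occurred exactly 61 times in the genome for Zfp791, 66 times for Zfp42, 59 times for Zfp932 and 52 times for the Zfp236 promoter. Of these copies, 58 at Zfp791, 63 at Zfp42, 58 at Zfp932 and 51 at Zfp236 lay in a region found in all 8 libraries. At Zfp386 164 of 212 copies did, and at Zfp960 6 of 14. At the region near Zfp64 (chr2:169199373-169200456), whose summit window held no masked repeat, 11 of 11 copies did. The summits of the finger regions at Zfp42 and at Zfp13 (nearest gene Zfp213) occurred once. So did the summit near Zfp296, a gene of pluripotent and germ cells in the mouse. This region (chr7:19586100-19587016) lies 9271 bp after the start of Zfp296, with its summit in the coding sequence of the neighbouring gene Clasrp. Over all 1425 regions, 27.4% had a summit sequence with more than 1 exact copy. The share was 33.9% of the 174 regions found in all 8 libraries and 26.6% of the 522 found in 1. Where reads fit several copies, the fold at 1 copy cannot be told apart from that of the others.

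**Figure D3:**
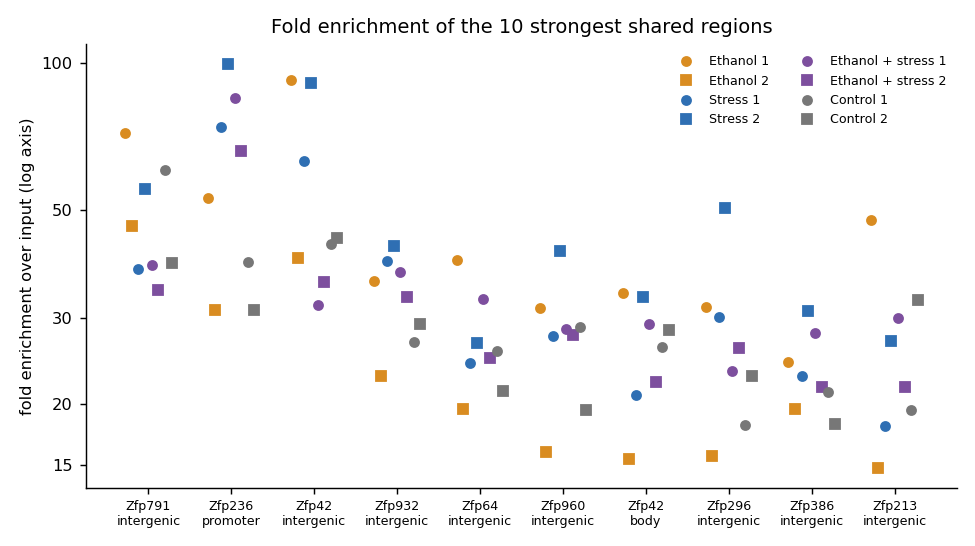
Fold enrichment over input (vertical log axis) of the 10 regions with the highest fold ranks among those found in all 8 libraries, named by nearest gene and place. Circles are library 1 and squares library 2 of each group. At the Zfp236 promoter the Stress and Ethanol + stress libraries lie between 65.9 and 99.4, above the Ethanol and Control libraries.

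Regions at zinc finger genes were shared somewhat more often than regions in general. They were found in all 8 libraries in 12.2% of cases (174 of 1425), against 9.76% of all regions, and in a single library in 36.6%, against 38.7%. By place, 12.6% of gene body regions were found in all 8 (8.59% of all gene body regions), 12.1% of intergenic regions (10.2%) and 10.7% of promoter regions (9.66%). Shared regions held more CpG, with a median of 13 CpG in the 300 bp at the summit of regions found in all 8 libraries and 4 in those found in 1. For all other regions these medians were 8 and 4. Among other families of zinc finger genes by symbol, regions found in all 8 libraries made up 12.9% of 178 Zbtb regions, 10.8% of 37 Zscan, 8.70% of 23 Zkscan, 5.08% of 197 Klf, 6.00% of 50 Zic, 8.66% of 127 Zfhx and 10.4% of 163 Prdm regions. At least 2 finger patterns in 1 frame were found at the summit of 71 of the 1425 regions (4.98%) and of 50 of 89747 other regions (0.0557%). Since the 1425 were chosen by the name of their gene, a higher share was set in advance. Of the 71, 68 lay over an annotated finger, and 3 were among the 1336 regions that did not (0.225%).

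**Figure D4:**
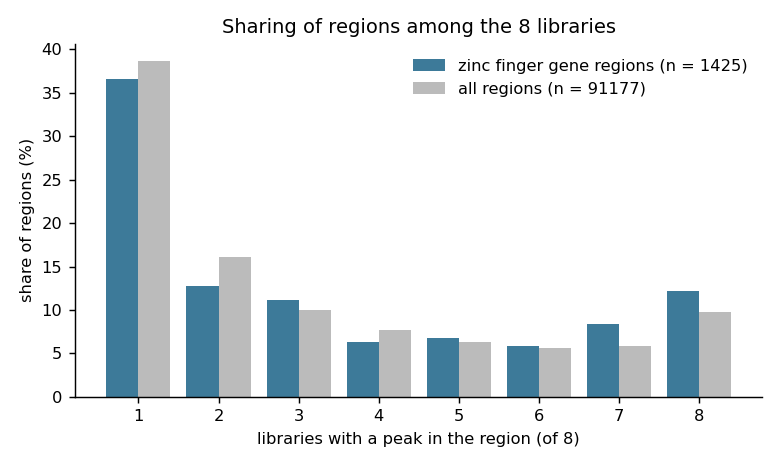
Share of regions (vertical axis, %) by the number of libraries with a peak in the region (horizontal axis, 1 to 8), for zinc finger gene regions and all regions. The 2 sets have a similar shape, with 12.2% against 9.76% in all 8 libraries and 36.6% against 38.7% in 1.

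The regions were spread unevenly over genes and chromosomes. Of the 240 genes, 106 had a single region, and 10 genes held 36.2% of all regions. Those were Zfp516 with 81 regions, Zfp521 with 79, Zfp217 with 57, Zfp64 with 53, Zfp36l1 with 46, Zfp536 with 45, Zfp703 with 42, Zfp608 with 40, Zfp507 with 38 and Zfp326 with 35. A nearest-gene rule gives a gene every peak up to the midpoint with its neighbours, so a gene with distant neighbours collects more. The median distance of intergenic peaks to the start site was 84801 bp, counted over the peaks of all libraries, and 64.5% of them were over 50000 bp away. Zfp516, a cofactor of brown fat thermogenesis in the mouse, had its 81 regions within 0.682 Mb, or 119 per Mb, against 34.4 regions per Mb in the genome as a whole. Over the 10 genes this density ran from 32.7 per Mb at Zfp608 to 142 at Zfp217. Zfp521, a regulator of neural and blood progenitors in the mouse, had 46 of its 79 regions in the gene body, and 6 of the 79 were found in all 8 libraries. Zfp217, a transcriptional regulator amplified in human breast cancers, had 53 of 57 regions outside the gene and 10 in all 8 libraries. The span was measured between the outermost regions of the gene, and the 10 genes were picked for having most regions. Chromosome 18, which carries Zfp516, Zfp521 and Zfp608, held 263 regions (18.5%, against 3.38% of all regions) at 10 genes. Chromosome 7 held 195 (13.7%, against 5.96%) at 59 genes, and chromosomes 2 and 8 held 165 and 134. None lay on chromosomes 19 or Y.

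Clustered genes had fewer regions each than the others, while a like share of them had a finger peak. A cluster was a run of at least 5 annotated Zfp genes with starts no more than 500 kb apart, and there were 17 of them with 180 genes. The clusters held 167 regions, or 0.928 per gene, at 92 of the genes, against 1249 regions, or 5.84 per gene, for the 214 genes outside. Starts in clusters are close by definition, and the nearest-gene rule gives such genes less sequence, so the counts per gene are not comparable. The median distance of a region to the start site was 13526 bp in clusters and 91075 bp outside. Regions over a finger made up 24.0% in clusters (40 of 167) and 3.92% outside (49 of 1249), and the median CpG count at the summit was 11 in clusters and 5 outside. Counted by gene, 40 of 174 finger genes in clusters (23.0%) had a finger peak in at least 1 library, against 46 of 179 outside (25.7%). In clusters 18% of regions were found in all 8 libraries, against 11.5% outside. The clusters differed among themselves. The 9 genes at chr6:47819266-48623227, among them Zfp467, Zfp282 and Zfp398, all had a region, 19 in total, with 7 over fingers and 6 in all 8 libraries. The 15 genes at chr7:29768552-30169727, which include Zfp568, a repressor of a placental Igf2 transcript, had 13 regions and 9 of them over fingers. The 23 genes at chr13:67038596-67827002, which include the retroelement repressor Zfp708, had 9 regions, none over a finger and none in all 8 libraries. The 18 genes at chr4:145514884-147848366 had 10 regions at 3 genes, 4 of them in all 8 libraries and none over a finger. Regions in clusters numbered 97 and 56 in the Ethanol libraries, 93 and 103 in the Stress libraries, 89 and 89 in the Ethanol + stress libraries, and 63 and 58 in the Control libraries.

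Genes with a role known from mouse work were looked up in a fixed list of 42. Of these, 29 had a region, 3 had a promoter region (Zfp42, Zfp488 and Zfp36l3) and 19 had a region in all 8 libraries. The imprint keepers Zfp57 and Zfp445 had no region, nor did Zfp568 or the provirus silencer Zfp809. Their last coding exons held 7.64 CpG per 300 bp at Zfp57, 4.63 at Zfp445, 7.99 at Zfp568 and 3.73 at Zfp809. Among neural genes, Zfp521 had 79 regions, Zfp536 had 45, Zfp423 had 34, Zfp462 had 26, Zfp804a had 22 and Zfp407 had 19, while Zfp335 and Zfp292 had none. Zfp238, also counted without a region, is an older symbol of Zbtb18, under which the files list the gene. Of the 34 regions at Zfp423, 29 lay in the gene body and 7 were found in all 8 libraries. The best shared region near Zfp804a, whose human counterpart lies at a schizophrenia risk locus, was 591922 bp before its start (chr2:81460222-81462235), with a fold of 21 and 9.60 in the Ethanol libraries, 27.4 and 34.8 in the Stress libraries, 17.2 and 13.2 in the Ethanol + stress libraries, and 18.6 and 21.2 in the Control libraries. Of the CCCH genes, Zfp36l1 had 46 regions, Zfp36l2 had 28, Zfp36l3 had 1 and Zfp36 had 0. Of 20 genes for partners of KRAB zinc finger proteins, 11 had a region, 1 had a promoter region (Dnmt1, the maintenance DNA methyltransferase) and 3 had a region in all 8 libraries (Dnmt1, Chd4 and Suv39h2). Of 22 markers of hippocampal and neighbouring cell types, 19 had a region, 8 a promoter region and 7 a region in all 8 libraries. DNA peaks do not show which cells a sample held.

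The number of regions in a library followed how many peaks the caller found in it. The Ethanol libraries had 773 and 390 regions, the Stress libraries 680 and 862, the Ethanol + stress libraries 686 and 640, and the Control libraries 481 and 417. The mean was 581.5 ± 271 in Ethanol, 771.0 ± 129 in Stress, 663.0 ± 32.5 in Ethanol + stress and 449.0 ± 45.3 in Control libraries (SD, n = 2 each). Stress and Ethanol + stress values lay above both Control values, while the Ethanol libraries lay on either side of them. By exact permutation tests (two-sided) the difference from Control was 132.5 for Ethanol (p = 1.00; -59.0 without Ethanol library 1 and 324 without Ethanol library 2), 322.0 for Stress (p = 0.333) and 214.0 for Ethanol + stress (p = 0.333), where 0.333 is the smallest p that 2 against 2 allow. The 4 separated libraries averaged 717.0 regions and the 4 unseparated ones 515.2 (exact permutation p = 0.114, adjusted p = 0.583 over 35 comparisons). The 4 ethanol-exposed libraries averaged 622.2 and the 4 unexposed ones 610.0 (exact permutation p = 0.943, adjusted p = 1.00). The separated libraries all lay above the unseparated ones once Ethanol library 1 was left out, with a difference of 289 and an unadjusted exact permutation p of 0.0286, the smallest that 4 against 4 or 4 against 3 allow. Of 113 tests under the alternatives, 2 passed 0.05, this one and 1 given for strength, and neither was adjusted for that number. As a share of a library's peaks, peaks at zinc finger genes made up 1.71% and 1.73% in the Ethanol libraries, 1.72% and 1.69% in the Stress libraries, 1.62% and 1.79% in the Ethanol + stress libraries, and 1.76% and 1.75% in the Control libraries. The mean share differed from Control by -0.0373 percentage points in Ethanol, -0.0500 in Stress and -0.0530 in Ethanol + stress. The last lay between -0.139 without Ethanol + stress library 2 and 0.0335 without Ethanol + stress library 1. All peaks numbered 45961 and 22805, 40187 and 51747, 43139 and 36173 in the same order, and 27655 and 24017 in the Control libraries. Read totals are not given in the sources used here, so the depth behind these numbers is unknown.

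**Figure D5:**
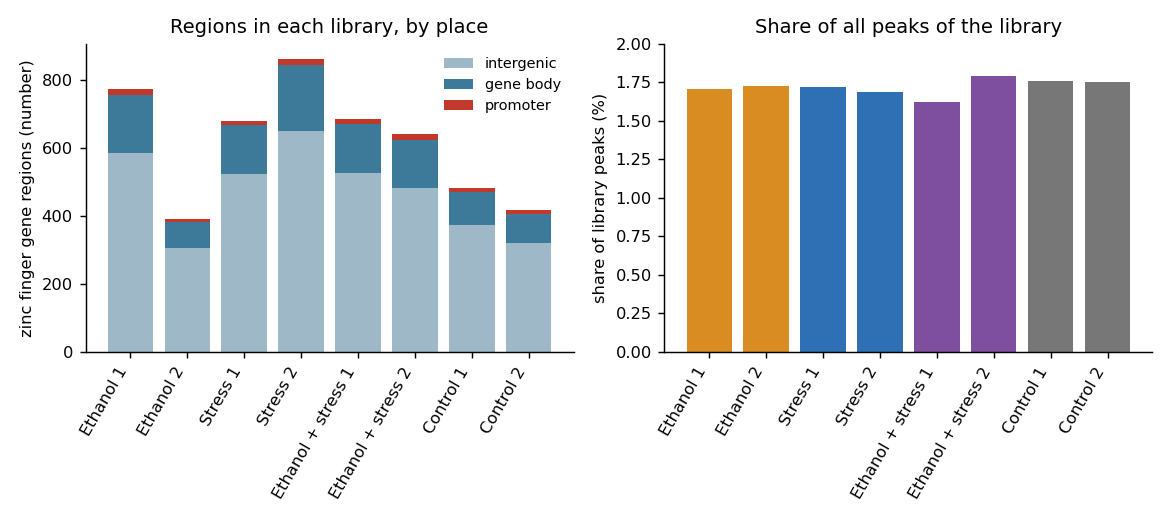
Left, number of zinc finger gene regions in each library (vertical axis), stacked by place. Right, peaks at zinc finger genes as a share of all peaks of the library (vertical axis, %), which lies between 1.62% and 1.79% while the number of regions lies between 390 and 862.

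Promoter regions numbered 18 and 8 in the Ethanol libraries, 13 and 18 in the Stress libraries, 17 and 16 in the Ethanol + stress libraries, and 11 and 11 in the Control libraries. Gene body regions numbered 169 and 77, 145 and 194, and 142 and 141 in the Ethanol, Stress and Ethanol + stress libraries, and 97 and 85 in the Control libraries. Within a library, the fold of zinc finger peaks had a median percentile among all peaks of 54.8 and 55.1 in Ethanol, 56.9 and 58.4 in Stress, 59.1 and 51.6 in Ethanol + stress, and 52.8 and 53.2 in Control libraries. They were thus a little stronger than the library's median peak in 8 of 8 libraries. The Stress libraries stood 4.63 percentile points above Control (exact permutation p = 0.333), and the separated libraries 2.51 above the unseparated ones (exact permutation p = 0.171, adjusted p = 0.583). This last difference, with Ethanol + stress library 2 left out, was 4.15 (unadjusted exact permutation p = 0.0286, 1 of the 2 among 113), and 1.64 without Ethanol + stress library 1. Finger coverage differed from Control by 4.23 percentage points in Stress and 2.92 in Ethanol + stress (exact permutation p = 0.333 each), and by 0.877 in Ethanol (exact permutation p = 1.00). The rise was not confined to fingers. Long last coding exons of genes with fewer than 3 fingers were covered over 4.96% and 5.63% in the Control libraries. In Stress these values were 8.38% and 11.0%, and in Ethanol + stress 9.27% and 6.23%. None of the 35 comparisons passed an adjusted p of 0.05.

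Regions present in both libraries of a treatment and in neither Control library were called gained, and the opposite lost. In Ethanol, 37 of the 1425 regions (2.60%) were gained, against 2.82% of all regions, and 17 (1.19%) were lost, against 0.930%. In Stress, 147 (10.3%) were gained, against 8.93%, and 12 (0.842%) were lost, against 0.847%. In Ethanol + stress, 88 (6.18%) were gained, against 5.54%, and 10 (0.702%) were lost, against 0.656%. Each share was within 1.4 percentage points of that of all regions. The 3 comparisons use the same Control libraries. When the same number of peaks, 22805, was kept in every library, those with the smallest q-values, 889 zinc finger gene regions and 54461 regions in all were left. Ethanol then had 21 gained (2.36%, against 2.16% of all) and 20 lost (2.25%, against 2.97%). Stress had 41 gained (4.61%, against 3.71%) and 26 lost (2.92%, against 3.52%), and Ethanol + stress 26 gained (2.92%, against 2.72%) and 15 lost (1.69%, against 2.60%). Leaving out 1 library relaxes the rule and raised the counts, to between 64.0 (without Control library 2) and 314 (without Ethanol library 2) gained in Ethanol, 198 (without Control library 2) and 395 (without Stress library 1) in Stress, and 134 (without Control library 2) and 244 (without Ethanol + stress library 2) in Ethanol + stress. In all 4 separated and none of the unseparated libraries there were 5 regions (0.351%, against 0.406% of all regions), and in the opposite pattern 0 (0.00877% of all). In all 4 ethanol-exposed and no unexposed library there were 0 regions (0.0834% of all), and in the opposite pattern 1 (0.0702%, against 0.0417%).

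In Stress, 10 of the 147 gained regions (6.80%) lay over a finger, in Ethanol + stress 3 of 88 (3.41%), and in Ethanol 0 of 37, against 6.25% of all 1425 regions, while none of the lost regions did. The region at Zfp420 (chr7:29875291-29875896) was the one of these found in all 4 separated libraries and in no other. Its fold was 5.18 and 8.22 in the Stress libraries and 5.42 and 5.45 in the Ethanol + stress libraries, with no peak in the Ethanol or Control libraries. A signal just under the caller's limit in the other libraries would give the same pattern, and the files hold called peaks only. At Zfp668 (chr7:127866801-127867526) the fold was 7.89 and 12.4 in the Stress libraries, 10.2 and 4.85 in the Ethanol + stress libraries and 8.68 in Ethanol library 1. The other Stress gains over fingers were at Zfp169, Zfp11, Zfp316, Zfp473 and Zfp358, at Zfp61 and, in regions whose nearest start was that of Zfp61 and Zfp30, over the fingers of Zfp94 and Zfp84, with folds of 4.73 to 13.3 in the Stress libraries. All but those at Zfp11, Zfp473 and Zfp94 also had a peak in Ethanol library 1. The third Ethanol + stress gain over a finger was the promoter region of Zfp652.

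Gained regions in promoters made up 2.04% in Stress and 3.41% in Ethanol + stress, against 1.96% of all 1425 regions. In Stress these were Zfp180, 250 bp after the start (chr7:24081968-24082519), Zfp395, 1665 bp after it, and Zfp846, 1340 bp after it. Zfp180 had a fold of 8.70 and 8.22 in the Stress libraries and 8.55 in Ethanol library 1, with no peak in the others. Zfp846 (chr9:20582342-20582960) had 9.78 in Ethanol library 1, 8.05 and 6.69 in the Stress libraries, and 8.70 and 7.71 in the Ethanol + stress libraries, and was gained in both separated groups. In Ethanol + stress the others were Zfp648 and Zfp652. The promoter region lost in Stress was at Zfp7 (chr15:76877734-76878429, about 1190 bp before the start). Its fold was 9.80 and 7.68 in the Ethanol libraries, 6.77 and 8.60 in the Ethanol + stress libraries, and 6.89 and 8.48 in the Control libraries, with no peak in either Stress library. No promoter region was gained or lost in Ethanol.

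The gain with the highest rank in Ethanol was also the second in Stress, in the gene body of Zfp407 (chr18:84476505-84477213). Its fold was 16.1 and 11.3 in the Ethanol libraries, 16.9 and 13.3 in the Stress libraries, and 13.6 and 5.85 in the Ethanol + stress libraries, with no peak in either Control library. The first in Stress, near Zfp957 (chr14:79201155-79202715), with its summit in an untranslated region of an annotated gene, had 10.6 and 6.97 in the Ethanol libraries, 14.7 and 13.3 in the Stress libraries, and 5.49 and 6.61 in the Ethanol + stress libraries, and none in Control. Both were found in all 6 treated libraries. In Ethanol + stress the first was near Zfp629 (chr7:127625437-127626316), with 10.5 and 10.8 in the Ethanol + stress libraries, 9.17 in Ethanol library 1 and 10.4 in Stress library 2. The region near Zfp369 (chr13:65419624-65420199) was found in the Control libraries alone, with a fold of 10.7 and 7.89, and so was counted as lost in all 3 treatments. The other separated-only regions were near Zfp64, Zfp516, Zfp703 and Zfp960, with folds of 4.67 to 9.21. The region near Zfp868 (chr8:69505599-69506346), present in all unexposed and no ethanol-exposed library, had 8.35 and 15 in the Stress libraries and 5.22 and 6.12 in the Control libraries.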

How the data were processed

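MeDIP-Seq libraries of 12 mice in 4 groups were used, with 2 enriched libraries and 1 input per group, grouped by the submitters' labels. Per the submitters' processing notes, reads were aligned to mm10 with HISAT2 2.1.0. The authors called peaks with MACS in each enriched library against the input of its group and gave each peak its nearest UCSC RefSeq gene. The deposited values are fold enrichment over input, the −log10 q-value of each peak, and a summit tag score, which was not used. Fold sets the strength of a peak, and a within-library percentile of fold was used to rank regions. Only called peaks were analysed, so the limits of calling set which regions exist.

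Peaks overlapping by 1 bp were merged across libraries. Group differences were tested with exact two-sided permutation tests over libraries, with Benjamini-Hochberg adjustment over 35 comparisons. Coding sequences and fingers came from GENCODE M21, in which 236 of the 240 gene names were found, and bases from the RefSeq genome GRCm38.p6. Regions named in the text were those highest in within-library percentile in each class, the genes and clusters with most regions, and members of fixed lists. Promoter and finger examples beyond that rule were chosen after their values were seen. The members and lists were chosen with earlier results of these data known. Alternatives were other peak sets, merging rules, promoter windows, a replicate block and leaving out each library. Scripts were tested on simulated data. Python 3.11.15, numpy 2.4.6, pandas 2.3.3 and matplotlib 3.10.9 were used. Sequences of intergenic regions are not reported here.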

Additional observations from a re-analysis of the deposited data

Results flagged for a closer look

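Of 72 groups of 4 libraries checked with Dixon's test, 4 had a library apart from the others, where chance gives about 1 in 20. Stress library 2 had 194 gene body regions, against 141 to 145 in the other separated libraries. Ethanol library 1 had a fold of 92.4 at the intergenic region near Zfp42, against 39.8 to 43.8 in the other unseparated libraries and 31.9 to 39.8 in the other ethanol-exposed ones, which accounts for 2 of the 4. Stress library 2 had a fold of 41.1 at the region near Zfp960, against 27.5 to 28.5 in the other separated libraries.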

How the results depend on the processing

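Of 166 values of 45 results under the alternatives, 131 kept their direction and size class, 35 moved and no called value reversed. Leaving out 1 library gave 180 values, of which 132 counted as the same, 46 moved and 2 passed the threshold, 289 and 4.15 for separated libraries below. With an equal number of peaks per library, gained regions numbered 21 in Ethanol, 41 in Stress, 26 in Ethanol + stress and 3 in separated libraries, lost regions in Stress 26, and regions in 1 library 306. With the upper 50% of peaks by fold, lost regions numbered 11 in Ethanol, 6 in Stress and 4 in Ethanol + stress, gained regions 8 in separated and 2 in ethanol-exposed libraries, lost regions in ethanol-exposed libraries 0, regions in all 8 libraries 83, regions in 1 library 242, and genes with a finger peak in every library 18. That last alternative was chosen after seeing the data. With peaks over the body of a Zfp gene, gained regions numbered 10 in Ethanol, 52 in Stress, 30 in Ethanol + stress and 2 in separated libraries, lost regions 3, 3, 1 in the 3 treatments and 0 in ethanol-exposed libraries, regions in all 8 libraries 55 and regions in 1 library 143. Merging within 100 bp of the summit gave 1 region lost in separated libraries. Promoter windows of 1000 and 5000 bp gave 7 and 85 promoter regions. These alternatives use fewer or other peaks by construction.

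Leaving out 1 library moved the difference in regions from Control over -59.0 to 324 in Ethanol, 232 to 414 in Stress and 182 to 246 in Ethanol + stress, that of separated libraries over 154 to 289 and of ethanol-exposed ones over -52.1 to 97.0. The share of peaks moved over -0.0472 to -0.0275, -0.0642 to -0.0357 and -0.139 to 0.0335 percentage points in the 3 treatments, -0.0611 to -0.00349 in separated and -0.0464 to 0.0113 in ethanol-exposed libraries. The median percentile moved over 1.73 to 2.15, 3.88 to 5.38 and -1.44 to 6.12, over 1.64 to 4.15 in separated and -1.50 to 1.02 in ethanol-exposed libraries. Gained regions ranged over 64.0 to 314, 198 to 395 and 134 to 244, 7 to 28.0 in separated and 0 to 8 in ethanol-exposed libraries. Lost regions ranged over 20 to 110.0, 18 to 70.0 and 23.0 to 79.0, 0 to 2 and 1.00 to 7. Regions in every library ranged over 176 to 235 (12.8% to 17.0%), regions in 1 library over 479 to 524, genes with a finger peak over 84.0 to 88.0 and those in every library over 28.0 to 37.0. With the replicate number as a block, the differences in regions were 132 (exact permutation p = 1.00), 322 (p = 0.500), 214 (p = 0.500), 202 (p = 0.250) and 12.2 (p = 0.875) for Ethanol, Stress, Ethanol + stress, separated and ethanol-exposed libraries. The smallest p that blocks allow is 0.500 with 2 pairs and 0.125 with 4, so no blocked test could pass. The numbers did not pair the libraries, since correlations of deviations ran from -0.041 to 0.077 over 6 pairs of groups. Read totals, and so depth, were not known, and 2 libraries per group cannot reach a threshold of 0.05.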
